A study of Mus musculus with 12 samples.

Results

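The genes described here are 8 regulators of hair cells, the sensory cells of the inner ear: the transcription factors Atoh1, Pou4f3, Gfi1, Lhx3, Barhl1, Ikzf2 and Insm1, and the RNA-binding protein Rbm24. They were named with earlier results of these arrays known, and each was read from the array entry that carries its symbol alone. Each of the 8 had 1 such entry, and all 8 were among the 16306 genes tested, of 19938 genes with 1 symbol. The tissue was the cochlea of untreated wild-type C57BL/6 mice at postnatal day 0 (P0) or postnatal day 8 (P8), cut into 3 pieces along its length, the base, the middle and the apex. Each piece held the organ of Corti with the spiral limbus and the lateral wall, so hair cells are only a part of each sample. About 80 temporal bones were pooled for each age in each of 2 separate dissection sets, which gave 6 groups of 2 arrays. The sample titles carry a different year for each set, so dissection and year cannot be told apart. Within an age and set the 3 pieces came from the same animals, while P0 and P8 came from different ones.

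The base of the cochlea detects high-frequency sound and the apex low-frequency sound, and hair cells mature from the base towards the apex. Atoh1 is the factor that makes a precursor become a hair cell, and in mice it is switched off again as the cell matures. Pou4f3, Gfi1, Lhx3 and Barhl1 act after it, and Pou4f3, Gfi1 and Barhl1 are known for keeping hair cells alive and differentiated. Insm1 and Ikzf2 belong to the outer hair cell, the amplifying type, where Insm1 acts early and Ikzf2 late. Rbm24 is a splicing factor of muscle and hair cells. In supporting cells, Notch receptors and Hes and Hey repressors are known to hold Atoh1 down.

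Of the 8 genes, 2 passed the test, and both are in gene lists the study chose on these arrays. Atoh1 fell from P0 to P8 in the base and in the apex, where 1.48% and 2.1% of all genes passed downwards. Rbm24 rose in the apex, where 2.42% of all genes passed upwards, and its base difference, -0.19 ± 0.11, did not pass. At P8 Rbm24 was 2.63-fold higher in the apex than in the base, a comparison that 0.178% of all genes passed upwards. Without a block that last call was lost when any 1 of its 4 arrays was left out, and the change of the Rbm24 apex-base difference with age did not pass (adjusted p 0.128 by limma). No other regulator passed the test in any of the 6 comparisons without a block. With the set as a replicate block, the Rbm24 change passed with an adjusted p of 0.011 by limma (0.141% of all genes passed upwards). Atoh1 between apex and base at P0 passed there too (0.0467 by limma, 0.405% of all genes upwards). Both of these calls depended on single arrays.

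Windows from the RefSeq promoter table (GRCm38.p6) are reported for 5 of the 8 genes, Atoh1, Gfi1, Rbm24, Lhx3 and Barhl1, 8 in all. The table held none for Ikzf2 and Insm1, and Pou4f3 is not reported here. The windows of the 2 genes that passed are shown because their levels moved in opposite directions between the ages in the apex. Each is the 250 bases before the transcription start, 5′ to 3′ on the + strand, chr6:64728875-64729124 for Atoh1 and chr13:46418050-46418299 for Rbm24. For Rbm24 most of this window lies inside the gene as annotated in the same assembly. Capitals mark the matches to the motifs searched.
Atoh1: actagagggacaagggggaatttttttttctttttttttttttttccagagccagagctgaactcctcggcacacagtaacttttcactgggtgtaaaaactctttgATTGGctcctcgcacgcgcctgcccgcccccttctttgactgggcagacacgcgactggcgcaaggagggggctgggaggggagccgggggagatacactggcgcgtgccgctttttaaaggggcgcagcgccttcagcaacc
Rbm24: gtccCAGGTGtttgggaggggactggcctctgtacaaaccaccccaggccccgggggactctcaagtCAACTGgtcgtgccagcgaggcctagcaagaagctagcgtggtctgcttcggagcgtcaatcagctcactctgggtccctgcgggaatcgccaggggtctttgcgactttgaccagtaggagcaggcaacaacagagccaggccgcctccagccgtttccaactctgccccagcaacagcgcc
The letters CANNTG, the E-box to which ATOH1 and its relatives bind, read the same on both strands and matched 2 times in the Rbm24 window and 0 times in that of Atoh1. At least 1 match was found in 66.2% of all 32851 windows of this length. CCAAT, searched on both strands, matched 1 time in the Atoh1 window, as its reverse complement, and at least 1 match was found in 33.8% of all windows. ATTAAT, the core of POU4 sites, and AAATCA, the core of GFI1 sites, matched in neither window on either strand, against 4.39% and 12.4% of all windows. No matches overlapped. The other 6 windows reported held together 1 match to AAATCA, in 1 of the 2 Barhl1 windows. An E-box was found in 5 of them, both of Gfi1, both of Barhl1 and 1 of Lhx3.

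The signals are log2 values of robust multiarray averaging (RMA), in which a step of 1 is a doubling, and they compare 1 gene between samples, not 1 gene with another. The median of all entries lay between 7.21 and 7.29 on the 12 arrays. Arrays of the same group differed with a typical SD of 0.175, the median over tested genes. The 2 sets stood apart, since arrays of 1 set deviated from their group means together (correlation 0.544 to 0.916 over 15 pairs of groups). Of 25 hair cell marker genes 23 were measured, with 21 to 23 of them above a log2 signal of 6 in each group. That level lies below the median of all entries, and 16306 of 19938 genes had a mean above it in at least 1 group. These counts alone therefore do not show how much hair cell RNA a sample held. The first-set P0 apex array had the highest mean signal of 12 skeletal muscle markers, 7.81 against 6.59 to 6.99 on the other arrays, and values without it are given where a result rests on it.

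**Figure D1:**
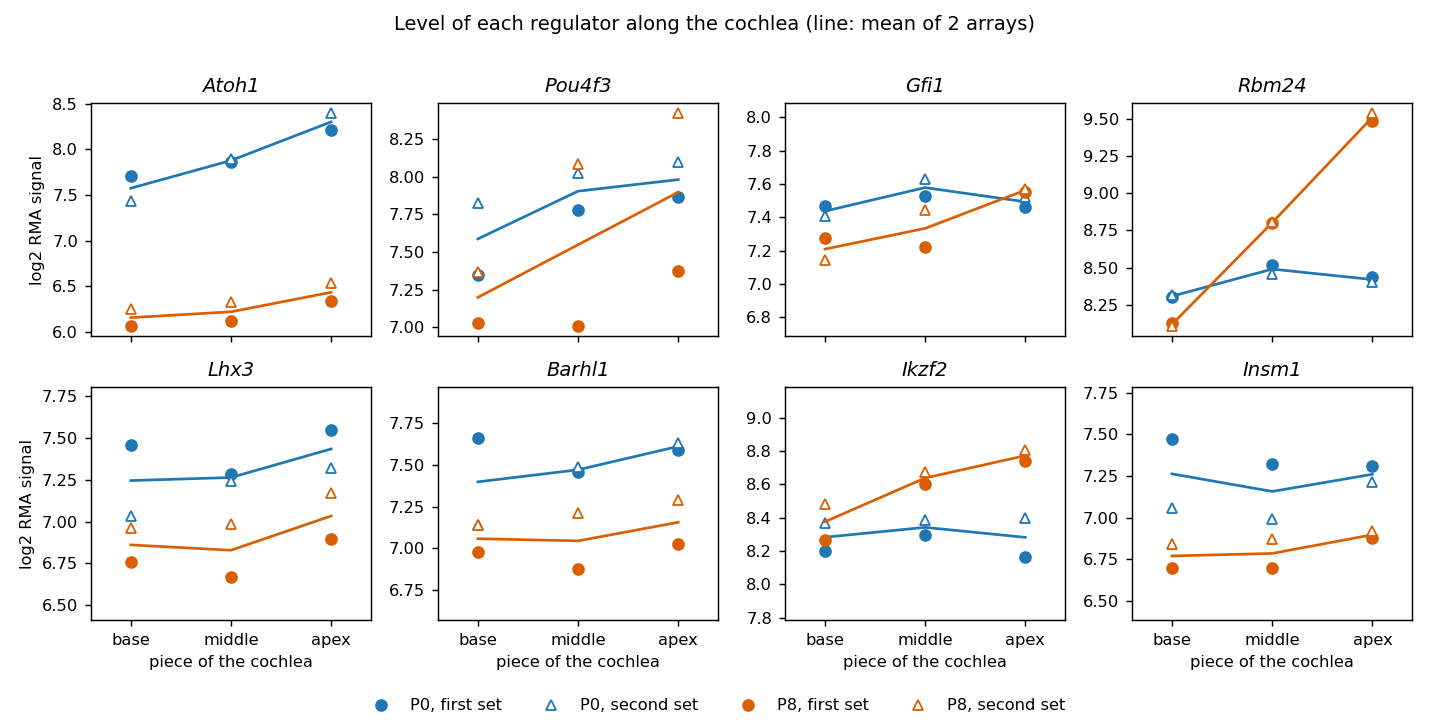
Log2 RMA signal of each regulator by piece and age, 1 panel per gene with its own vertical range. Filled circles mark the first set, open triangles the second, and lines join the group means. Every P8 value of Atoh1 lies below every P0 value, and Rbm24 climbs from 8.12 to 9.51 between base and apex at P8 while its P0 means stay between 8.31 and 8.49.

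Atoh1, a basic helix-loop-helix factor, had log2 signals of 7.71 and 7.44 in the P0 base, 7.86 and 7.89 in the P0 middle, and 8.21 and 8.39 in the P0 apex, in the first and the second set. At P8 they were 6.07 and 6.25 in the base, 6.12 and 6.32 in the middle, and 6.33 and 6.53 in the apex. The 6 P0 arrays and the 6 P8 arrays did not overlap. In the order of the levels, P0 apex was highest, then P0 middle, P0 base, P8 apex, P8 middle and P8 base, and the last 2 of these were the only neighbours whose arrays overlapped. The P8 groups lay not far above the level of 6 that the test requires in at least 1 group.

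Rbm24, the RNA-binding protein, had signals of 8.30 and 8.31 in the P0 base, 8.52 and 8.46 in the P0 middle, and 8.44 and 8.40 in the P0 apex. At P8 the base gave 8.13 and 8.11, the middle 8.80 and 8.80, and the apex 9.49 and 9.54. The sets were close for this gene, with a largest gap of 0.06 within a group. The order from the highest was P8 apex, P8 middle, P0 middle, P0 apex, P0 base and P8 base, and no neighbours overlapped. The 2 steps at P8 were alike in size, 0.67 and 0.70 from base to middle and 0.69 and 0.73 from middle to apex. At P0 the first step was 0.22 and 0.15, and the second went the other way, by -0.08 and -0.06.

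Pou4f3, a POU-domain factor needed for hair cell survival, had signals of 7.35 and 7.83 in the P0 base, 7.78 and 8.03 in the P0 middle, and 7.86 and 8.10 in the P0 apex. At P8 the base gave 7.03 and 7.37, the middle 7.01 and 8.09, and the apex 7.37 and 8.42. The second set was higher in 6 of 6 groups, by 0.57 on average and by 1.08 in the widest case, the P8 middle. All 5 pairs of neighbours in the order of the levels overlapped, while the apex arrays lay above the base arrays at either age, at P8 by less than the 2 decimals printed here.

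Gfi1, a zinc-finger repressor, had signals of 7.47 and 7.41 in the P0 base, 7.53 and 7.63 in the P0 middle, and 7.46 and 7.52 in the P0 apex. At P8 the base gave 7.28 and 7.14, the middle 7.22 and 7.45, and the apex 7.55 and 7.57. Its P8 apex arrays lay above its P0 apex arrays, which were the only neighbours that did not overlap. The P8 base mean was the lowest of the 6.

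Lhx3, a LIM homeodomain factor, had signals of 7.46 and 7.03 in the P0 base, 7.29 and 7.24 in the P0 middle, and 7.55 and 7.32 in the P0 apex. At P8 the base gave 6.76 and 6.96, the middle 6.67 and 6.99, and the apex 6.89 and 7.17. Barhl1, a homeodomain factor of hair cell maintenance, had 7.66 and 7.14, 7.46 and 7.48, and 7.59 and 7.63 in the P0 base, middle and apex. At P8 its signals were 6.98 and 7.14, 6.88 and 7.21, and 7.02 and 7.29. Both genes had their 3 highest group means at P0, and in both the P0 base of the second set lay among the P8 values. The profiles of these 2 genes over the 12 arrays had a Pearson r of 0.966, a description of arrays that share pools and sets.

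Insm1, a zinc-finger factor of developing neurons and early outer hair cells, had signals of 7.47 and 7.06 in the P0 base, 7.32 and 6.99 in the P0 middle, and 7.31 and 7.21 in the P0 apex. At P8 the base gave 6.70 and 6.84, the middle 6.70 and 6.87, and the apex 6.88 and 6.92. Every P8 value lay below every P0 value. Ikzf2, the zinc-finger factor also called helios, ran the other way, with 8.20 and 8.37, 8.30 and 8.39, and 8.16 and 8.40 in the P0 base, middle and apex. At P8 it gave 8.27 and 8.48, 8.60 and 8.68, and 8.74 and 8.81. Its P8 apex and P8 middle arrays lay above all others, and its P0 groups and P8 base overlapped.

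The first comparison set the apex against the base at P0, when hair cells of the apex are the less mature. The limma test called 0 of the 8 regulators higher and 0 lower, against 0.00613% of all 16306 genes higher and 0 lower. Atoh1 had the largest difference, 0.73 ± 0.16 (SE) on the log2 scale or 1.66-fold, with an adjusted p of 0.433 by limma (Benjamini-Hochberg over all tested genes) and an unadjusted p of 0.00138 by limma. No other regulator reached an unadjusted p under 0.05 with the required fold of 1.5, and 0.595% of all genes did so upwards. The apex was higher in 2 of 2 sets, by 0.50 and 0.96, and 0.38% of all tested genes had a larger difference upwards. The middle mean lay between the base and the apex for Atoh1, Pou4f3, Lhx3 and Barhl1, as for 50.5% of all genes. In limma with the set as a replicate block, Atoh1 passed with an adjusted p of 0.0467, as did 0.405% of all genes in this direction. With the pool of each age as a fixed block its adjusted p by limma was 0.0056 (0.73% of all genes passed upwards), and with the pool as a random block 0.00858 (0.576%). Without the first-set P0 apex array, Atoh1 differed by 0.82 with no block and by 0.79 with the replicate block, with adjusted p of 1 and 0.16 by limma, and with the block it passed in 0 of 12 fits that each left out 1 array (adjusted p 0.0544 to 0.229).

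Atoh1, Pou4f3 and Rbm24, 3 of the 8, had P0 apex arrays that lay wholly above the P0 base arrays, against 12% of all genes, and 0 lay wholly below, against 9.48%. Pou4f3 differed by 0.39 ± 0.41, Barhl1 by 0.21 ± 0.20, Lhx3 by 0.19 ± 0.20 and Rbm24 by 0.11 ± 0.11, each with an adjusted p of 1 by limma. Gfi1, Ikzf2 and Insm1 differed by 0.06 ± 0.13, -0.0007 ± 0.14 and -0.0026 ± 0.18. The median of the 8 was 0.15, beside 0.03 over all tested genes. Hair cell markers had a median of -0.07 here, with 10 of 23 higher and 13 lower and 0 past the test, and of opposite sign in the sets (0.03 and -0.10). Skeletal muscle markers were higher in 11 of 11 (median 0.37, by set 0.67 and 0.08, the first of which holds the array with the high muscle signal), supporting cell markers in 10 of 12 (0.19) and neuron markers in 9 of 12 (0.21), while leukocyte and red blood cell markers had medians of -0.02 and -0.08, all with 0 past the test without a block. The part of these cells in the regulators' differences at P0 was not tested.

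At P8 the apex mean was above the base mean for 8 of 8 regulators, and in 2 of 2 sets for each of them, against 31.7% of all genes with that direction in both sets. The test was passed by 1 of the 8, Rbm24, against 0.178% of all genes higher and 0.0184% lower. It differed by 1.39 ± 0.11 on the log2 scale or 2.63-fold, with an adjusted p of 0.00389 by limma, by 1.36 in the first set and 1.43 in the second. Only 25 of the 16306 genes, or 0.153%, had a larger difference upwards. With the replicate block the adjusted p by limma was 2.08e-04, where 1.13% of all genes passed upwards. Leaving out 1 array at a time kept the difference between 1.37 and 1.42, and the call was lost without any 1 of the 4 arrays it compares: the adjusted p by limma was 0.0524 without the first-set P8 base, 0.0571 without the first-set P8 apex, 0.0968 without the second-set P8 base and 0.0982 without the second-set P8 apex. With the replicate block it passed in 12 of 12 such fits.

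Pou4f3 had the next largest difference at P8, 0.70 ± 0.41 or 1.62-fold, with an adjusted p of 1 by limma. The sets gave 0.35 and 1.05. Its adjusted p was 0.178 with the replicate block and 0.0851 with the pool as a random block (1.36% of all genes higher), and it passed only with the pool as a fixed block, with an adjusted p of 0.0217 by limma against 1.55% of all genes called higher there. Ikzf2 differed by 0.40 ± 0.14, Gfi1 by 0.35 ± 0.13, Atoh1 by 0.28 ± 0.16, Lhx3 by 0.17 ± 0.20, Insm1 by 0.13 ± 0.18 and Barhl1 by 0.10 ± 0.20. None of these 6 passed in limma without a block or with any of the 3 blocks. With the pool as a fixed block Ikzf2 had an adjusted p of 0.0483 by limma and fell short only of the fold required. For 6 of the 8 regulators, all but Lhx3 and Barhl1, the P8 apex arrays lay wholly above the P8 base arrays, against 15% of all genes, and 0 lay wholly below, against 11.9%. The middle mean lay between base and apex for the same 6, as for 44.9% of all genes.

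**Figure D2:**
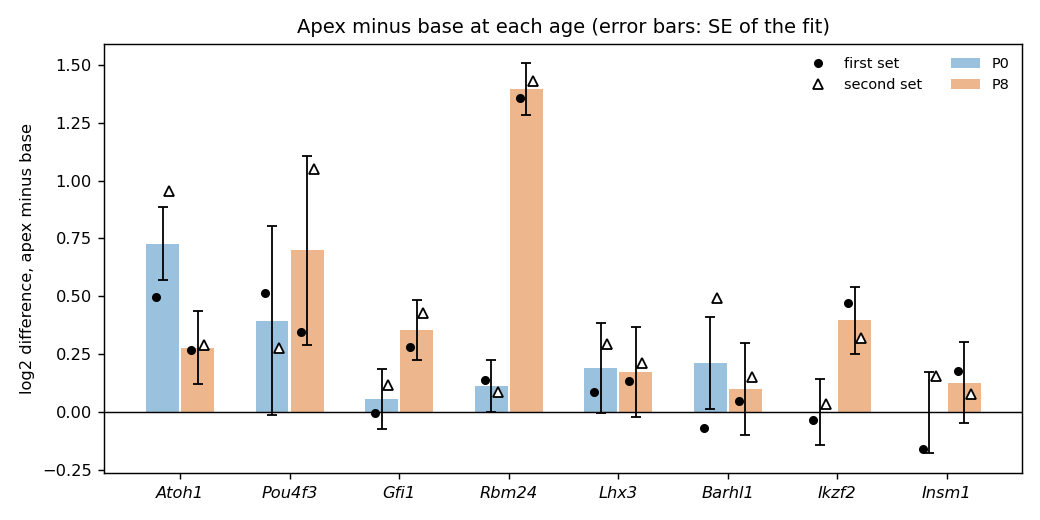
Apex minus base on the log2 scale for each regulator, P0 in blue and P8 in orange, bars for the mean of 2 sets, error bars for the SE of the limma fit, circles for the first set and triangles for the second. Rbm24 stands at 0.11 at P0 and 1.39 at P8, and Atoh1 at 0.73 and 0.28.

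Hair cell markers were higher in the P8 apex as well. Of 23 measured, 22 had a higher mean in the apex and 20 did so in both sets, with a median of 0.46, beside 0.0029 over all tested genes and 0.32 over the 8 regulators. None passed the limma test without a block, and 7 passed with the replicate block. The largest differences were those of Smpx, 1.54 ± 0.32, a small muscle and hair cell protein, and Slc26a5, 1.24 ± 0.21, the outer hair cell motor prestin. The mean log2 signal of the markers was 7.60 and 7.68 in the P8 base and 8.14 and 8.38 in the P8 apex. When this mean was subtracted on each array, the apex-base difference at P8 stayed above 0 in both sets for Rbm24 alone, at 0.82 and 0.73. It was below 0 in both sets for Atoh1, Gfi1, Lhx3, Barhl1, Ikzf2 and Insm1, and for Pou4f3 it was -0.19 and 0.35. The markers themselves differed by -0.08 to 1.54, so their mean is not a measure of hair cell number. The sign after subtraction depends on the markers chosen. In pooled tissue fewer hair cells and less RNA per hair cell cannot be told apart, and the part of cell number in any of these differences was not tested.

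Markers of other cells also differed along the P8 cochlea. Of 12 supporting cell markers 9 had a higher apex mean (median 0.35), and 1 passed, Jag1, a Notch ligand, by 1.21 ± 0.14, or 3 with the replicate block (Prox1 and Sox2 added). Of 12 spiral ganglion neuron markers 10 were higher in the mean, with a median of 0.38 that the sets did not share (-0.19 in the first and 0.96 in the second) and 0 past the test, the largest difference being that of Syt1, a vesicle protein, by 1.54. Leukocyte markers had a median of -0.18, skeletal muscle markers 0.05 and the 3 red blood cell markers measured -0.21, with 0 past the test. The part of these cells in the regulators' differences was not tested.

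**Figure D3:**
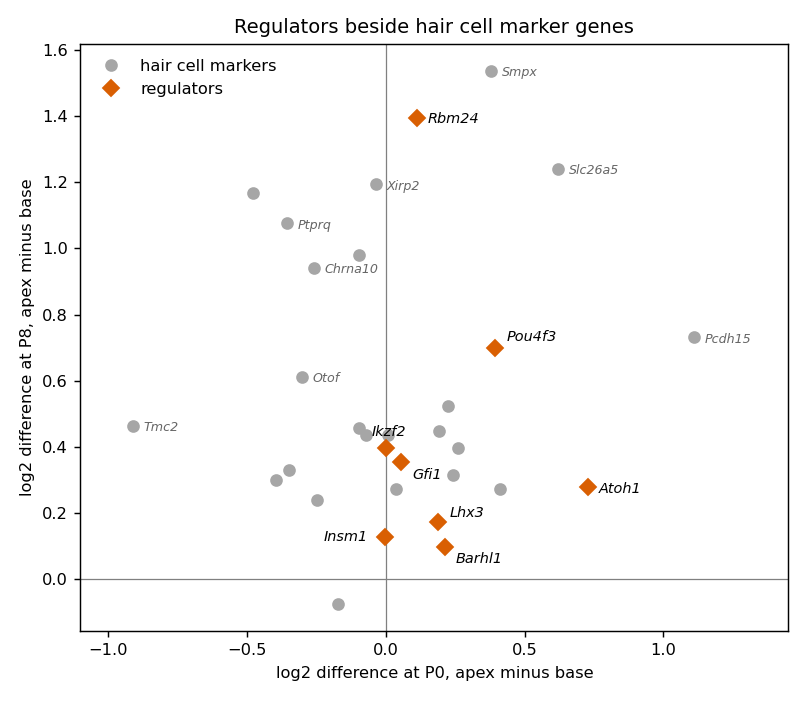
Apex minus base on the log2 scale at P0 (horizontal) and at P8 (vertical), 1 point per gene, orange diamonds for the 8 regulators and grey circles for 23 hair cell markers, some named. Of the markers 22 lie above 0 at P8, and Rbm24, at 1.39, lies among the highest of them while Lhx3, Barhl1 and Insm1 lie under 0.2.

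The third comparison set P8 against P0 over the 3 regions, with a fold of at least 2 required. It was passed by 1 of the 8 regulators, Atoh1, against 1.14% of all genes lower and 2.06% higher. Atoh1 fell by 1.65 ± 0.09 on the log2 scale, to 0.319 of its P0 level, with an adjusted p of 1.33e-05 by limma. It was lower in 2 of 2 sets, by -1.76 and -1.54, and 32 of the 16306 genes fell further in the mean. With the pool as a random block, which allows for the likeness of arrays from 1 pool, its adjusted p by limma was 3.54e-04. There 0.987% of all genes passed downwards. This fit still takes its degrees of freedom from the arrays, not from the 2 pools of each age. Without any 1 array the difference stayed between -1.69 and -1.60 and the call was kept in 12 of 12 fits.

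Lhx3, Barhl1 and Insm1 each had a difference of -0.41 (SE 0.11, 0.11 and 0.10), or about 0.75-fold, with adjusted p of 0.0356, 0.0385 and 0.0242 by limma, below the fold required. The 2 sets were unequal for all 3 of them, with -0.66 and -0.16 for Lhx3, -0.61 and -0.21 for Barhl1, and -0.61 and -0.21 for Insm1. Rbm24 differed by 0.41 ± 0.06 and Ikzf2 by 0.29 ± 0.08, with adjusted p of 0.00284 and 0.0394 by limma, also below the fold required. With the pool as a random block the adjusted p of these 5 genes by limma lay between 0.143 and 0.403. Pou4f3 differed by -0.28 ± 0.24 and Gfi1 by -0.13 ± 0.08. Atoh1 and Insm1, 2 of the 8, had 6 P8 arrays wholly below 6 P0 arrays, against 7.41% of all genes, and 0 lay wholly above, against 8.08%. The median of the 8 was -0.34, beside -0.0014 over all tested genes.

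In the base alone, Atoh1 was the 1 regulator of 8 that passed, against 1.48% of all genes lower and 2.34% higher, with a difference of -1.42 ± 0.16 and an adjusted p of 0.00268 by limma. In the apex alone, 2 of the 8 passed, Atoh1 and Rbm24, against 2.1% of all genes lower and 2.42% higher. Atoh1 fell by 1.87 ± 0.16 there, with an adjusted p of 8.11e-04 by limma, and Rbm24 rose by 1.09 ± 0.11 or 2.13-fold, with an adjusted p of 0.0013 by limma. Rbm24 in the base differed by -0.19 ± 0.11, with -0.17 and -0.21 in the sets, and in the middle by 0.28 and 0.34. Without the first-set P0 apex array the differences in the apex were -1.96 for Atoh1 and 1.11 for Rbm24, and both passed with adjusted p of 0.00699 and 0.0122 by limma. Ikzf2 differed by 0.09 ± 0.14 in the base and 0.49 ± 0.14 in the apex, and Gfi1 by -0.23 ± 0.13 and 0.07 ± 0.13, none of them past the test. In the base 5 of the 8 lay wholly lower at P8 (Atoh1, Gfi1, Rbm24, Lhx3 and Insm1), against 19.2% of all genes, and 0 lay wholly higher, against 19.5%. In the apex 4 lay wholly lower (Atoh1, Lhx3, Barhl1 and Insm1), against 21% of all genes, and 3 wholly higher (Gfi1, Rbm24 and Ikzf2), against 22.5%.

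**Figure D4:**
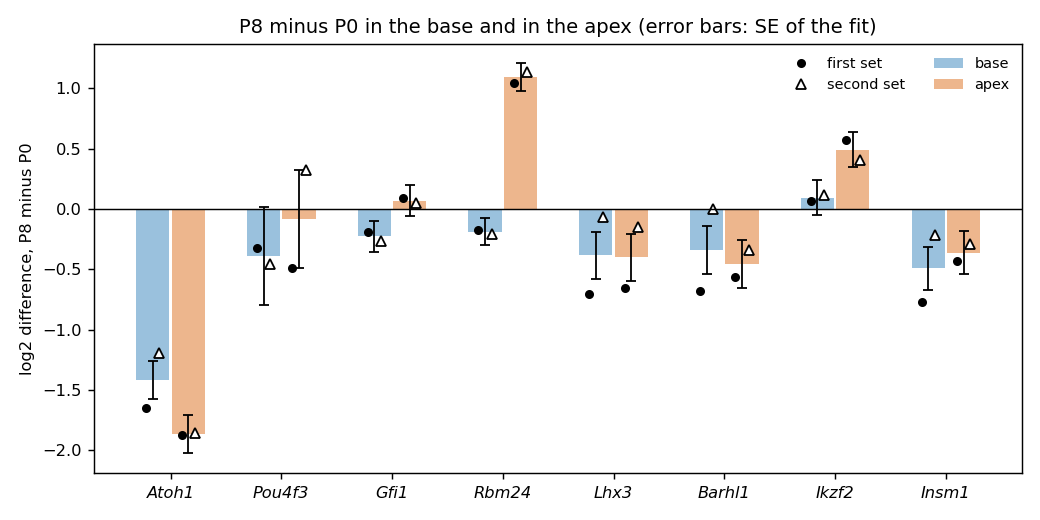
P8 minus P0 on the log2 scale in the base (blue) and in the apex (orange), bars for the mean of 2 sets, error bars for the SE of the limma fit, circles for the first set and triangles for the second. Atoh1 is below 0 in both regions, at -1.42 and -1.87, and Rbm24 is at -0.19 in the base and 1.09 in the apex.

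Hair cell markers differed widely from each other over this interval. Ocm, the calcium buffer oncomodulin, rose by 4.68 on the log2 scale, Slc26a5 by 3.05 and Tmc1, a transduction channel protein, by 1.24 over the 3 regions. Of the 23 markers 14 had a higher and 9 a lower mean, with a median of 0.02, and the lowest were Pvalb, the calcium buffer parvalbumin, at -0.78 and Pcdh15, the tip-link protein protocadherin 15, at -0.78, below the fold required. Spiral ganglion neuron markers had a median of -0.79, with 9 of 12 lower and 4 past the test, led by Stmn2, a growth cone protein, at -2.25. Leukocyte markers had a median of 0.45, with 11 of 12 higher and 0 past the test, and the 3 red blood cell markers 0.27. Skeletal muscle markers had -0.24, with -0.54 in the first set and 0.04 in the second, which does not hold the array with the high muscle signal. Of the supporting cell markers 1 rose, Gjb6, a gap junction protein, by 1.43, and 1 fell, Prox1, a homeodomain factor, by 1.38. Relative to the mean of the hair cell markers on each array, Atoh1 in the apex differed by -2.44 and -2.57 between the ages. Without that subtraction it differed by -1.88 and -1.86. The marker mean holds the rising Ocm, Slc26a5 and Tmc1, so it is not a measure of hair cell number. The part of neurons or leukocytes in the change of any regulator was not tested.

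The last comparison asked whether the apex-base difference itself changed with age. In limma without a block 0 of the 8 regulators passed, as did 0 of all 16306 genes in either direction. For Rbm24 the difference grew by 1.28 ± 0.16, with an adjusted p of 0.128 and an unadjusted p of 2.36e-05 by limma, and it was the single regulator with an unadjusted p under 0.05, as for 1.32% of all genes upwards. The sets gave 1.22 and 1.35, and 26 of all tested genes, or 0.159%, had a larger growth. With the replicate block Rbm24 passed with an adjusted p of 0.0110 by limma, as did 0.141% of all genes in this direction, and with the pool as a fixed or a random block its adjusted p was 0.00123 or 0.00148 (0.589% or 0.343% of all genes). With the replicate block and 1 array left out, it passed in 7 of 12 fits (adjusted p 0.0203 to 0.144). The call was lost without the first-set P0 apex, the array with the high muscle signal (1.30, adjusted p 0.0611 by limma), and without the first-set P8 base (0.0726), the second-set P0 base (0.0980), the second-set P8 base (0.144) or the second-set P8 apex (0.0679). Atoh1 gave -0.45 ± 0.22, Ikzf2 0.40 ± 0.20, Pou4f3 0.30 ± 0.58 and Gfi1 0.30 ± 0.18, and Insm1, Barhl1 and Lhx3 gave 0.13 ± 0.25, -0.11 ± 0.28 and -0.02 ± 0.28. The median of the hair cell markers was 0.55, with 21 of 23 above 0 and 0 past the test without a block.

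The Notch pathway and Id family, with Sox2 and Prox1, were examined as a list of 13 genes, all of them tested. Most are known to hold Atoh1 down, but Hes6 is known as a target of Atoh1 that opposes Hes1. From P0 to P8 over the 3 regions 5 had a higher and 8 a lower mean, with a median of -0.23 that the sets did not share (-0.37 and 0.16), and the 1 that passed was Prox1, which fell by 1.38 ± 0.10. In the base 2 fell, Prox1 by 1.53 and Sox2, the factor of the supporting cell and progenitor state, by 1.38, and in the apex Prox1 fell by 1.11. With the replicate block Hes6 fell as well, by 0.64 in the base and 0.93 in the apex (adjusted p 0.00726 and 7.62e-04 by limma). In that fit Id2 rose in the base by 1.01 (0.00219). The pool as a random block gave adjusted p by limma of 0.206 and 0.046 for Hes6 and 0.118 for Id2. Of these only Hes6 in the apex passed there. Apex over base gave a median of 0.19 at P0 and 0.14 at P8, with 0 past the test without a block. The largest differences were Prox1, 0.69, and Sox2, 0.41, at P0, and Sox2, 1.36, and Prox1, 1.12, at P8, and at P8 these 2 passed with the replicate block. No Hes, Hey or Id gene passed in the age comparison over the 3 regions. Hes5 (-0.66), Hes6 (-0.72), Notch1 (-0.57), Sox2 (-0.96) and Id2 (0.73) fell short only of the fold required. Without a block their adjusted p by limma lay between 0.0018 and 0.0474. With the pool as a random block it lay between 0.0565 and 0.186.

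Of 26 other transcription factors of the inner ear 24 were tested. At P8 1 passed in the apex, Isl1, a LIM homeodomain factor, which was higher by 1.77 ± 0.18, beside a median of 0.20 for the list, and with the replicate block 4 passed, Isl1, Sox2 (1.36), Rorb (1.13) and Gata3, a zinc-finger factor (0.92). Over the 3 regions 1 rose from P0 to P8, Rorb, a nuclear receptor, by 2.01 ± 0.10, and 1 fell, Sox11, a factor of immature neurons, by 1.18 ± 0.08, and 20 of 24 had a lower mean, with a median of -0.28. In the base Rorb rose by 1.91 and 4 fell, Sox2 by 1.38, Isl1 by 1.33, Sox11 by 1.02 and Nhlh1, a helix-loop-helix factor, by 0.98. Tcf3, which codes for a dimer partner of ATOH1, differed by -0.72 over the regions and Tcf12 and Tcf4, its relatives, by -0.32 and -0.07, below the fold required. None passed in apex against base at P0 without a block, where Rorb had 1.07 and Isl1 1.02, and with the replicate block 3 passed there, these 2 and Sox11, at 0.61.

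Of 23 splicing and RNA regulators, chosen as a setting for Rbm24, all were tested and none passed in apex against base. Their medians were 0.17 at P0 and 0.05 at P8, and the largest differences were those of Lin28b, 0.89 and 0.53. With age 18 of the 23 had a lower mean and 2 fell, the neuronal RNA-binding proteins Elavl4 and Elavl3, by 1.57 ± 0.26 and 1.06 ± 0.09. Elavl4 is also in the list of neuron markers. Rbm38, the nearest relative of Rbm24, had an apex-base difference of 0.05 at P0 and 0.03 at P8 and differed by -0.18 with age, none past the test. Srrm4 and Srrm3, splicing factors of neurons and hair cells, differed by -0.55 and -0.03 with age, below the fold required.

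The genes with the most similar profile were sought by Pearson r over the 12 arrays, among the 1262 or 1263 genes whose group means spanned at least 1 log2 unit. The values describe arrays that share pools, sets and age. For Atoh1 they were Lypd6b (0.990), Cacna1b, an N-type calcium channel gene (0.989), and 2610318N02Rik (0.985). For Rbm24 they were Kcnh8, a potassium channel gene (0.950), Pla2g4e, a phospholipase gene (0.944), and Il1rapl2 (0.899). Ikzf2 was most like Plpp4 (0.964), Cpa6 (0.958) and Cubn (0.952). Gfi1 was most like Sox2 (0.861), the growth factor gene Fgf10 (0.853) and Tnc (0.851), which codes for tenascin C. Pou4f3 was most like Agr3 (0.912), Calb1, a calcium buffer gene (0.906), and Sfrp1, a Wnt antagonist gene (0.901). Insm1 was most like Cenpf (0.925), Kif21b (0.919) and Birc5 (0.918), of which Cenpf and Birc5 act in mitosis. Lhx3 and Barhl1 shared Zbtb12 and H2ax, a histone variant gene, with r of 0.943 and 0.922 for Lhx3 and 0.898 and 0.915 for Barhl1, and the remaining genes were Bend4 for Lhx3 (0.922) and Lypd6b for Barhl1 (0.888).

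Among the regulators themselves, Atoh1, Lhx3, Barhl1 and Insm1 had pairwise r of 0.858 to 0.966. Rbm24 and Ikzf2 had 0.819, and each of these 2 had a negative r with Atoh1, -0.33 and -0.63. Pou4f3 and Gfi1 had 0.688.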

How the data were processed

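Cochlear RNA of the 6 groups was hybridized by the authors to 12 Affymetrix Mouse Gene 1.0 ST arrays. The deposited log2 values are RMA signals made by the authors, who give no RMA version. Whether both sets went through 1 run is not stated. Groups and sets were taken from the sample titles. Of 35556 entries, 12146 without a symbol and 1621 with more than 1 were not used, and a gene with several entries kept the one with the highest mean. The members and all gene lists were chosen with earlier results of these data known, and Atoh1 and Rbm24 are in gene lists the study chose on these arrays. Symbols were updated to RefSeq (GRCm38.p6) by Entrez identifier for 16253 of the 16306 genes tested.

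Genes with a mean above 6 in at least 1 group were tested with limma 3.58.1 (R 4.3.3), lmFit and eBayes over 6 group means without a block (6 residual and 2.78 prior degrees of freedom), because the study's methods name an unpaired test. To pass, a gene needed p under 0.05 after Benjamini-Hochberg adjustment over all 16306, and a fold of 1.5 or more, 2 or more for the mean age difference of the 3 pieces, and any fold for the change of the apex-base difference. Each of the 4 pools of temporal bones gave 3 arrays, so base, middle and apex are paired within an age, as the study's methods describe. Therefore the set (a replicate block) and the pool (fixed, or random with a correlation of 0.689) were also fitted. The fixed pool block allows no comparison of ages. Other alternatives were no filter, a mean above 7, quantile normalization, trend and robust eBayes, only the groups compared, the mean of a gene's entries, the methods' t-test and each array left out. The last was also run with the replicate block, which was chosen after seeing the data. Named in the text are the 8 regulators, the 3 genes most like each, and of each list at most 4 members past the test, or the 2 with the largest difference. Hes6, Tcf3, Tcf12, Tcf4, Rbm38, Srrm3 and Srrm4 were named for their roles after their values were seen. Hes5 and Notch1 were also named after their values were seen, as genes that fell short only of the fold required. So were the genes named only for a call with the replicate block, the hair cell markers with the lowest age difference, and the relatives of the regulators. With 2 arrays a group, the number of arrays limits the precision. The fit was tested on simulated data, and Python 3.11.15, pandas 2.3.3 and matplotlib 3.10.9 made tables and figures.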

Additional observations from a re-analysis of the deposited data

Results flagged for a closer look

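For Rbm24 the apex-base difference was not the same at the 2 ages. It was 0.11 ± 0.11 (SE) at P0 and 1.39 ± 0.11 at P8 on the log2 scale, a change of 1.28 that stood out by a test of the change itself with the replicate block, with an adjusted p of 0.0110 by limma and the same direction in 2 of 2 sets. Without the block the adjusted p by limma was 0.128. With it the call was lost in 5 of 12 fits that left out 1 array, among them the one without the first-set P0 apex array, which had the highest skeletal muscle signal (change 1.30, adjusted p 0.0611 by limma). The cause was not tested.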

How the results depend on the processing

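Of the 8 regulators, the number past the test between apex and base at P0 went from 0 to 1 (Atoh1) with the set or the pool as a replicate block, fixed or random, and in the methods' t-test unadjusted. For P8 it went from 1 to 2 with the pool as a fixed replicate block (Pou4f3 added), and to 0 with only the groups compared, in the methods' t-test after Benjamini-Hochberg, and in 4 of the 12 fits without 1 array (range 0 to 1). For P8 over P0 it went from 1 to 0 in the base with only the groups compared and after Benjamini-Hochberg, and in the apex from 2 to 1 and to 0 under the same settings. Those 2 settings rest on fewer arrays or on no shared spread. For apex over base at P8 each of them called 0 of all 16306 genes. After Benjamini-Hochberg the t-test also called 0 of all genes with age in the base and in the apex. With only the groups compared, 29 genes passed upwards and 4 downwards in the base, and 58 and 27 in the apex. The change of the apex-base difference went from 0 to 1 (Rbm24) with each of the 3 replicate blocks. With the replicate block, that count and the one of P8 over P0 in the base also moved when single arrays were left out. Without the second-set P0 base array, Barhl1 then differed by -0.68 and Insm1 by -0.69 between the ages in the base. Over all 16306 genes the replicate block called 1023 higher and 691 lower in that comparison, against 382 and 241 without a block. The replicate block changed no other count of regulators.

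No difference past the test changed direction under any setting. Differences that had not passed crossed 0 when 1 array was left out, over the 24 fits with and without the replicate block. For apex over base at P0 these were Gfi1 (-0.0014 to 0.11), Lhx3 (-0.078 to 0.46), Barhl1 (-0.13 to 0.56), Ikzf2 (-0.12 to 0.12) and Insm1 (-0.21 to 0.20), and at P8 Barhl1 (-0.034 to 0.23) and Insm1 (-0.0057 to 0.26). For P8 over P0 they were Barhl1 (-0.68 to 0.0026) and Ikzf2 (-0.016 to 0.20) in the base and Pou4f3 (-0.61 to 0.44) in the apex. The change of the apex-base difference crossed 0 for Pou4f3 (-0.22 to 0.83), Lhx3 (-0.28 to 0.25), Barhl1 (-0.46 to 0.23) and Insm1 (-0.077 to 0.34). Of the 48 group means of the regulators, 5 moved by more than 1 SD under quantile normalization, which with 2 arrays a group is a narrow limit.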

Other observations

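Of 13 close relatives of the 8 regulators, 12 were tested. None passed in any of the 6 comparisons, either in limma without a block or with the replicate block. Pou4f1, a relative of Pou4f3 that is known from spiral ganglion neurons, differed by -0.50 ± 0.16 from P0 to P8 over the 3 regions, with an adjusted p of 0.0637 by limma. Lhx4, the relative of Lhx3, differed by -0.43 ± 0.16 between apex and base at P0 and by 0.13 ± 0.16 at P8. Gfi1b, the blood-forming relative of Gfi1, differed by -0.31 ± 0.19 and 0.21 ± 0.19 in the same comparisons. The Ikaros relatives of Ikzf2 differed with age by 0.07 (Ikzf1), 0.15 (Ikzf3), -0.17 (Ikzf4) and 0.0038 (Ikzf5).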
